A study of Drosophila melanogaster with 35 samples.

Results

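The autophagy (Atg) and vacuolar ATPase (Vha) genes were taken as every row of the deposited expression table whose symbol begins with Atg and a digit or with Vha. This gave 49 genes, 20 Atg and 29 Vha, of the 14279 genes in the table. They were sorted by the role of their product into the initiation complex (4 genes), the nucleation complex (2), the Atg9 cycle (4), the Atg8 proteins (2), the conjugation machinery (8), the cytosolic V1 sector of the proton pump (13), its membrane V0 sector (14) and its accessory subunits (2). A further 5 Vha symbols of the role lists, Vha16-2, Vha16-3, VhaPPA1-2, VhaM9.7-d and VhaAC45RP, were not analysed here.

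Autophagy encloses cytoplasm, protein aggregates and organelles in a double membrane and delivers them to the lysosome for digestion. The Atg1 kinase complex starts the process, a lipid kinase complex with Atg6 and Atg14 marks the site, Atg9 and Atg2 supply the membrane, and a pair of ubiquitin-like systems couple Atg8 to lipid so that the autophagosome can grow and select its cargo. The vacuolar ATPase uses ATP to pump protons into lysosomes and synaptic vesicles, and the lysosomal enzymes need the resulting acidity. Both systems are of interest in neurodegeneration because long-lived neurons, and the glia that engulf their debris, clear Aβ and tau in part through the lysosome.

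RNA was sequenced from the heads of adult Drosophila aged about 1 week, from 35 libraries of 12 genotypes. There were 3 libraries per genotype, except for tau alone with 2, and each library came from a pool of many heads. All 12 genotypes carried Repo-LexA, which directs LexA to glia, and either elav-gal4, a neuronal driver, or GMR-gal4, an eye driver active in photoreceptors. The elav control was elav-gal4,Repo-LexA/Y with no further transgene, and the GMR control was Repo-LexA/+ with GMR-gal4/+. To each control were added LexAop2-TREM2-WT,TYROBP or LexAop2-TREM2-R47H,TYROBP, which express in glia the human microglial receptor TREM2, as wild type or as the R47H risk variant for Alzheimer's disease, with its adaptor TYROBP. The elav background was also combined with UAS-Aβ42, a secreted human amyloid peptide made in neurons, and the GMR background with UAS-Tau, human tau made in the eye, each alone and with either form of TREM2/TYROBP. These genotypes are named elav Aβ42, elav Aβ42/TREM2WT/TYROBP and so on. The TREM2 and TYROBP constructs were placed by site-directed integration, and the position of each is not given in the sources used here, so that the R47H variant and the fly line that carries it cannot be told apart. The human transgenes were not analysed here.

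The values were log2 CPM (read counts scaled to library size), and the RNA integrity number (RIN) ran from 6.4 to 7.1 in the elav libraries and from 5.6 to 7.5 in the GMR libraries. Sequencing depth is unknown because no raw counts were used here. On the linear scale the values of a library summed to 0.911 to 2.03 times the nominal CPM total, and the highest sum, in GMR TREM2WT/TYROBP replicate 1, stood apart from the next, 1.25 times; the yolk protein gene Yp3 was at 18.54 log2 CPM there as deposited, 18.8% of that sum. Neuronal, glial and photoreceptor markers were present in every library, as the head label states. The flies were described as male, but 4 genes of females and yolk (Yp1, Yp2, Yp3 and fit) summed at equal RIN to 70.0 to 339 CPM in the elav libraries and to 61218 to 95822 CPM in the GMR libraries, while the male dosage RNAs roX1 and roX2 summed to 3141 to 3837 CPM and 44.8 to 62.7 CPM. As deposited, the sums over the 4 female and yolk genes ran from 37.4 to 458 CPM and from 2258 to 960493 CPM, so that the drivers did not overlap on either scale. Among GMR libraries the deposited sum rose with RIN, from 2258 and 2653 CPM at RIN 5.6 to 960493 CPM at RIN 7.5. The library at RIN 7.5 was GMR TREM2WT/TYROBP replicate 1, and its sum at equal RIN was 63332 CPM, within the range of the other GMR libraries. The GMR libraries thus went against the description in the methods of male flies. The strain labels of the elav genotypes name a Y chromosome and those of the GMR genotypes do not. Driver and sex cannot be told apart in any comparison between the drivers. Within the elav libraries the female and yolk sum at equal RIN was 339, 308 and 78.3 CPM in elav control and 70.0 to 94.9 CPM in the other genotypes, so that 2 of the 3 control libraries stood above the rest, and 3 or 4 of the 4 genes were called lower than in elav control in each of those 5 genotypes. The remaining gene was called higher in elav TREM2WT/TYROBP, elav Aβ42 and elav Aβ42/TREM2WT/TYROBP. The part of these genes in differences from elav control was not tested.

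Genotypes were compared with limma over all 35 libraries with RIN as a covariate, and p-values were adjusted by Benjamini-Hochberg over all 14279 genes. A gene was called changed where the adjusted p was under 0.05 and the fold change above 1.2, and tests of a difference between effects used the adjusted p alone. Levels are given as log2 CPM at equal RIN. The p-values measure the spread between libraries, since nothing shows whether the libraries of a genotype came from separate cultures. In whole heads, fewer cells of a type and less RNA per cell cannot be told apart.

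Of the 49 genes, 40 had a mean of at least 0 on the log2 CPM scale, and their levels were compared after division by gene length in kb. The median level was higher in the pump sectors (6.63 log2 CPM per kb for V1 and 6.40 for V0) than in the initiation (4.97), nucleation (4.30), Atg9 cycle (4.61) and conjugation (3.77) genes. These medians cover 10 of 13 V1 and 9 of 14 V0 genes but every gene of the other groups named here, so that the cut raised the pump medians alone. Over all 14 V0 genes the median falls between VhaM9.7-c (4.45) and Vha100-2 (5.30), a span that holds the initiation median. The V0 sector held the highest level of all, Vha16-1, which encodes the proteolipid ring, at 8.54 log2 CPM per kb, and the V1 sector was led by Vha13, a stalk subunit, at 7.66. The accessory subunits VhaAC45 and VhaM8.9 lay at 7.09 and 7.03. Among autophagy genes the membrane-anchored Atg8a was the highest, at 7.40 log2 CPM per kb. The initiation complex ran from 4.46 for Atg13 to 5.44 for the kinase gene Atg1, nucleation from 4.23 for Atg6 to 4.37 for Atg14, and the Atg9 cycle from 4.46 for Atg9 to 4.74 for Atg2. These 3 groups thus lay within a narrow band. The conjugation genes spread more widely, from 1.04 log2 CPM per kb for Atg10 to 5.28 for Atg3, both of which encode conjugating enzymes.

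**Figure D1:**
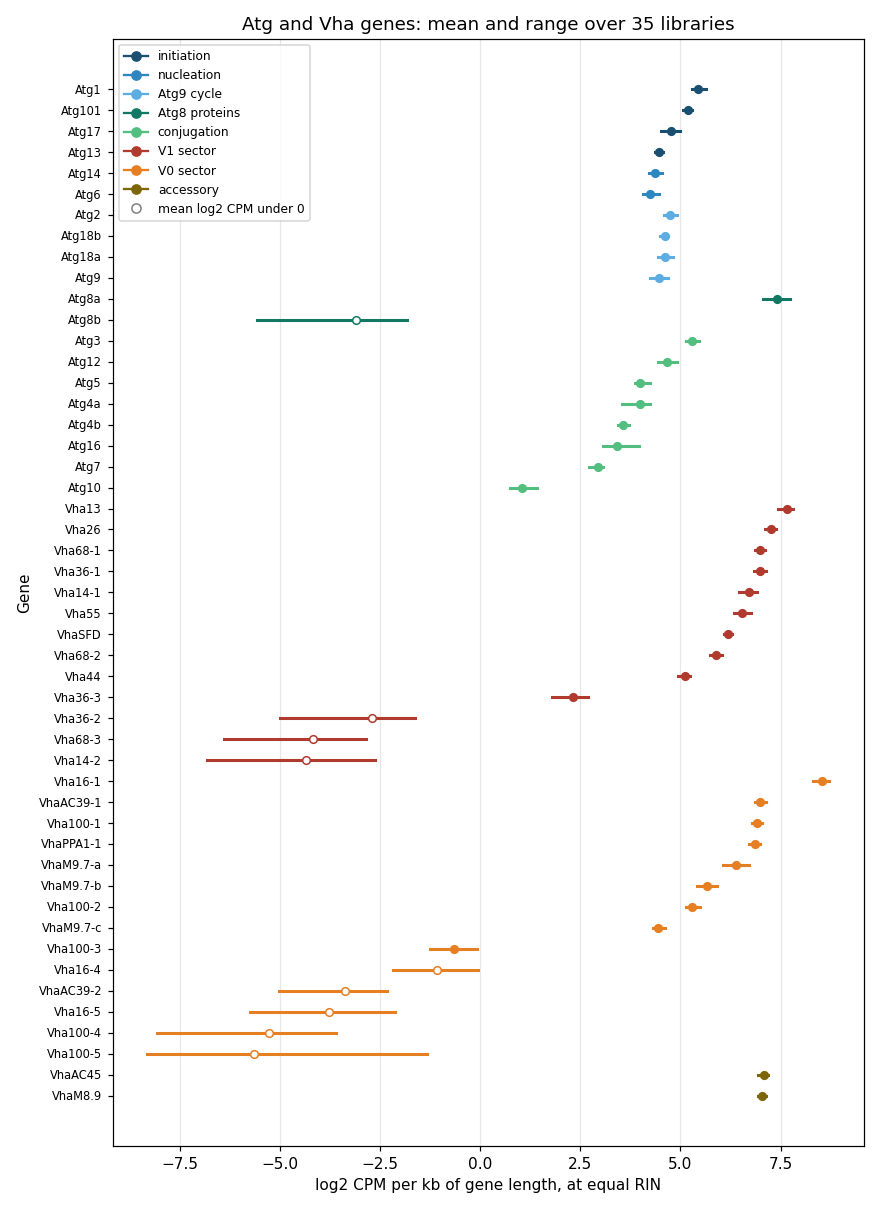
Level of each of the 49 Atg and Vha genes, in log2 CPM per kb of gene length at equal RIN. Points are means and lines run from the lowest to the highest of 35 libraries, with open points for the 9 genes whose mean log2 CPM lay under 0. Vha16-1 (8.54), Vha13 (7.66) and Atg8a (7.40) stand highest.

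The other 9 genes lay under 0 and are named without a claim on their changes, except where one was called. They were Atg8b (-3.72 log2 CPM), the V1 paralogs Vha36-2 (-2.32), Vha68-3 (-2.90) and Vha14-2 (-3.62), and the V0 paralogs Vha16-4 (-1.91), VhaAC39-2 (-3.08), Vha100-4 (-3.83), Vha100-5 (-4.11) and Vha16-5 (-4.24). Each has a paralog of the same subunit at a much higher level in the table. Among subunits with several expressed copies, Vha68-1 exceeded Vha68-2 (7.00 against 5.89 log2 CPM per kb), both encoding the catalytic subunit. Of the genes for the large V0 subunit, Vha100-1 stood at 6.92, Vha100-2 at 5.30 and Vha100-3 at -0.66 log2 CPM per kb. Of the genes for the V1 rotor shaft, Vha36-1 stood at 6.99 and Vha36-3 at 2.32. Vha100-3 and Vha36-3, the lowest of these copies with a mean of at least 0, were the ones called between genotypes.

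Across genotypes the Atg and Vha genes varied little. Against the control of their own driver, 5 of the 49 (10.2%) were called in at least 1 of the 10 comparisons, where 25.6% of all genes were. Among those with a mean of at least 0 it was 4 of 40 (10%), where 27.9% of such genes were called. These 5 were Atg16, Atg12, Vha100-3, Vha36-3 and VhaAC39-2. For the 40 genes with a mean of at least 0, the 95% confidence interval of the difference lay within 1.2-fold in 338 of 400 gene-by-comparison pairs (84.5%), where the same held in 56.5% of pairs for all genes with such a mean. The median range of the 6 genotype means was 0.15 log2 units in the elav set and 0.16 in the GMR set, beside 0.22 and 0.22 over all genes with a mean of at least 0. The residual SD of these genes was also lower (median 0.05, beside 0.07), and their median level was higher (6.14 log2 CPM, beside 4.67), and the part of level in the narrower intervals was not tested. With the threshold on fold size left out, 25 of the 49 (51.0%) differed from control at an adjusted p under 0.05 in at least 1 of the 10 comparisons, where 42.8% of all genes did. At that threshold the share was not below that of all genes, and most of the shifts were smaller than 1.2-fold.

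The counts by comparison were low throughout. Relative to elav control, no gene was called in elav TREM2WT/TYROBP (4.01% of all genes were called) or elav TREM2R47H/TYROBP (4.41%), 1 fell in elav Aβ42 (6.1%), 1 fell in elav Aβ42/TREM2WT/TYROBP (8.66%), and 2 rose and 1 fell in elav Aβ42/TREM2R47H/TYROBP (10.5%). At an unadjusted p under 0.05 the comparisons with no call held 9 and 11 of the 49 genes. Relative to GMR control, none was called in GMR TREM2WT/TYROBP (4.69% of all genes), 2 rose in GMR TREM2R47H/TYROBP (5.76%), 1 fell in GMR tau (5.32%), none was called in GMR tau/TREM2WT/TYROBP (5.7%) and 1 rose in GMR tau/TREM2R47H/TYROBP (7.95%). Here the comparisons with no call held 12 and 15 genes at an unadjusted p under 0.05. The median log2 fold change of the 49 genes ran from -0.02 in GMR TREM2WT/TYROBP to 0.07 in GMR tau/TREM2R47H/TYROBP, where the medians of all genes were 0.01 and 0.01.

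**Figure D2:**
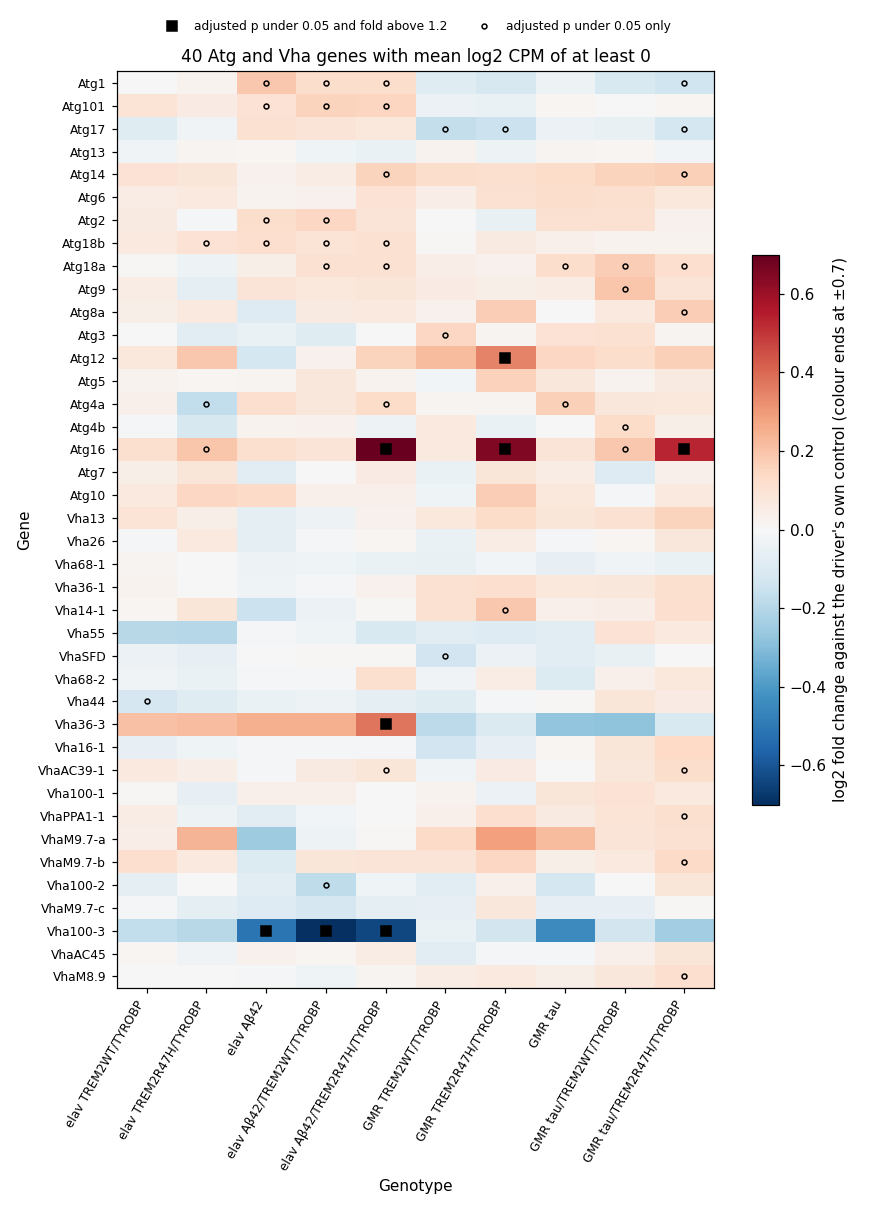
Log2 fold change of the 40 Atg and Vha genes with a mean log2 CPM of at least 0 in each of 10 genotypes against the control of the same driver, with red for higher and blue for lower. Black squares mark calls at an adjusted p under 0.05 and a fold above 1.2, and open circles an adjusted p under 0.05 alone; Atg16 in 3 genotypes with TREM2R47H and Vha100-3 in 3 genotypes with Aβ42 stand out.

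Initiation genes were not called against control in any genotype, where 25.6% of all genes were called in at least 1. Of their 40 intervals, 39 lay within 1.2-fold, where 56.5% did for all genes with a mean of at least 0. Atg1, the kinase that starts autophagy, showed the most regular small shift. Its log2 CPM was 7.47, 7.41 and 7.47 in elav control and 7.60, 7.64 and 7.68 in elav Aβ42. All elav Aβ42 libraries were above all elav control libraries, by 0.19 ± 0.04 (SE) log2 units or 1.14-fold (limma adjusted p = 0.000983). The difference was 0.12 ± 0.04 in elav Aβ42/TREM2WT/TYROBP (adjusted p = 0.0359) and 0.12 ± 0.04 in elav Aβ42/TREM2R47H/TYROBP (adjusted p = 0.0214), again with no overlap with control. In GMR tau/TREM2R47H/TYROBP, by contrast, Atg1 was lower than in GMR control by a log2 difference of -0.14 ± 0.04 (adjusted p = 0.00926). Atg101, a partner of Atg13 in the kinase complex, followed in the same 3 Aβ42 genotypes, with log2 differences of 0.10, 0.16 and 0.15 (adjusted p = 0.048, 0.00316 and 0.0021). Without Aβ42, its mean was also above elav control (5.97 log2 CPM), at 6.06 in elav TREM2WT/TYROBP and 6.02 in elav TREM2R47H/TYROBP. Neither passed the adjusted p, and the mean in elav Aβ42 was 6.07. Atg17, the scaffold of the complex, was lower than in GMR control by 1.12-fold in GMR TREM2WT/TYROBP (log2 difference -0.16 ± 0.04, adjusted p = 0.0122). Its log2 differences in GMR TREM2R47H/TYROBP and GMR tau/TREM2R47H/TYROBP were -0.15 and -0.12 (adjusted p = 0.0432 and 0.0364). Atg13, which bridges the complex, lay within 0.05 log2 units of control in every genotype. All of these shifts were under the fold threshold. Atg1 overlaps CG42709 on the other strand and Atg101 overlaps Pk17E on the same strand, and reads in the overlaps cannot be told apart because the library kit does not mark strand. In all, 16 of the 49 genes overlap another gene in the table's coordinates.

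The nucleation genes Atg6, the fly Beclin, and Atg14 were not called against control either. Atg14 was higher at an adjusted p under 0.05 in elav Aβ42/TREM2R47H/TYROBP (log2 difference 0.16 ± 0.05, adjusted p = 0.0376) and in GMR tau/TREM2R47H/TYROBP (0.17 ± 0.05, adjusted p = 0.0251). Atg6 passed that threshold in none of the 10 comparisons.

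Among the genes of the Atg9 cycle, which brings membrane and lipid to the growing autophagosome, Atg18a and Atg18b encode phosphoinositide-binding WIPI proteins. Atg18a was 6.17, 6.14 and 6.14 log2 CPM in GMR control, 6.24 and 6.31 in GMR tau, 6.26, 6.36 and 6.33 in GMR tau/TREM2WT/TYROBP, and 6.28, 6.28 and 6.24 in GMR tau/TREM2R47H/TYROBP. Every library with tau lay above every GMR control library. The log2 differences were 0.13 ± 0.03, 0.17 ± 0.03 and 0.12 ± 0.03 (adjusted p = 0.00854, 0.000379 and 0.00295), all below 1.2-fold. Atg18a was the only one of the 49 genes that passed the adjusted p in all 3 tau genotypes, and Atg1, Atg101, Atg18b and Vha100-3 did so in all 3 Aβ42 genotypes. The shift of Atg18a was not confined to tau. It also passed the adjusted p, as higher, in elav Aβ42/TREM2WT/TYROBP and elav Aβ42/TREM2R47H/TYROBP (means of 6.15 and 6.15 log2 CPM, beside 6.05 in elav control). Nor was the shift of Atg18b confined to Aβ42, since it passed the adjusted p, as higher, in elav TREM2R47H/TYROBP too. Its mean there was 5.90 log2 CPM, beside 5.80 in elav control and 5.90 to 5.92 with Aβ42. Comparisons with a shared control are not independent of each other. Atg9, the lipid scramblase of the isolation membrane, differed in 1 comparison, GMR tau/TREM2WT/TYROBP (0.20 ± 0.04, adjusted p = 0.00389). Atg2, which transfers lipid, was higher in elav Aβ42 (0.13 ± 0.03, adjusted p = 0.0101) and elav Aβ42/TREM2WT/TYROBP (0.14 ± 0.03, adjusted p = 0.00442). Photoreceptor markers moved with tau: 10 of 10 were in the table, their sum was 37332 to 38923 CPM in GMR control, 28301 to 30178 in GMR tau, 32702 to 33745 in GMR tau/TREM2WT/TYROBP and 32183 to 32754 in GMR tau/TREM2R47H/TYROBP, and 3, 1 and 1 of 10 were called lower in the 3 tau genotypes. Muscle markers, 6 of 6 in the table, summed to 4167 to 5042 CPM in GMR control, 3485 to 3545 in GMR tau, 3738 to 3998 in GMR tau/TREM2WT/TYROBP and 3535 to 3641 in GMR tau/TREM2R47H/TYROBP, and 3 of 6 were called lower in each. The part of either list in the tau differences was not tested.

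Atg8a encodes the ubiquitin-like protein that coats the autophagosome and binds cargo receptors. It was not called, and among the 10 comparisons against control it differed at an adjusted p under 0.05 in GMR tau/TREM2R47H/TYROBP (0.17 ± 0.05, adjusted p = 0.0207). The difference in GMR TREM2R47H/TYROBP was 0.17 ± 0.06 (adjusted p = 0.0581). It was also higher in elav Aβ42/TREM2R47H/TYROBP than in elav Aβ42 (0.16 ± 0.05, adjusted p = 0.0378). Adding TREM2WT/TYROBP to Aβ42 gave a similar 0.15, which did not pass the adjusted p. The log2 difference between the TREM2 forms with Aβ42 was 0.008, and elav Aβ42 itself differed from elav control by -0.09.

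The conjugation machinery held the clearest change. Atg16 encodes the coiled-coil partner of the Atg5-Atg12 conjugate that positions Atg8 lipidation on the membrane. In elav Aβ42/TREM2R47H/TYROBP its log2 CPM was 5.20, 5.10 and 5.20, in GMR TREM2R47H/TYROBP 5.23, 5.33 and 5.28, and in GMR tau/TREM2R47H/TYROBP 5.20, 5.25 and 5.04. In elav TREM2R47H/TYROBP it was 4.67, 4.70 and 4.64. The 23 libraries of the 8 genotypes without TREM2R47H lay between 4.42 and 4.88, with a median of 4.63. The first 3 genotypes therefore stood above every other library, and elav TREM2R47H/TYROBP lay within the range of the genotypes without the variant over both drivers, although 2 of its 3 libraries were above the highest elav library without it (4.64).

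Relative to control, Atg16 rose 1.62-fold in elav Aβ42/TREM2R47H/TYROBP (log2 fold change 0.69 ± 0.05, SE, adjusted p = 7.76e-11), 1.57-fold in GMR TREM2R47H/TYROBP (0.65 ± 0.05, adjusted p = 7.7e-09) and 1.45-fold in GMR tau/TREM2R47H/TYROBP (0.53 ± 0.04, adjusted p = 4.76e-09). In elav TREM2R47H/TYROBP it was 0.19 ± 0.05 above control (adjusted p = 0.0136), under the fold threshold, and in the 4 genotypes with TREM2WT/TYROBP the difference was between 0.07 and 0.19, the highest in GMR tau/TREM2WT/TYROBP (adjusted p = 0.0188). Adding TREM2R47H/TYROBP to Aβ42 raised Atg16 1.49-fold (0.58 ± 0.04, adjusted p = 2.85e-09), 1 of 2 genes called among the 49 (6.16% of all genes were called). Adding it to tau raised Atg16 1.36-fold (0.44 ± 0.05, adjusted p = 3.22e-06), the 1 gene called (3.48% of all genes). Adding TREM2WT/TYROBP to Aβ42 called none of the 49 (3.1% of all genes, with 6 of the 49 at an unadjusted p under 0.05).

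The direct comparison of the TREM2 forms singled out the same gene. TREM2R47H/TYROBP against TREM2WT/TYROBP gave a log2 difference in Atg16 of 0.60 ± 0.05 with Aβ42 (adjusted p = 5.8e-09), 0.58 ± 0.05 in the GMR background (adjusted p = 4.72e-07) and 0.35 ± 0.05 with tau (adjusted p = 0.000108). In each, Atg16 was the 1 gene called of the 49, where 1.64%, 1.77% and 2.07% of all genes were called. In the elav background the difference was 0.08 ± 0.04 (adjusted p = 0.365), and no gene of the 49 was called (1.88% of all genes), with 7 at an unadjusted p under 0.05. The smallest p there belonged to Atg4a, an Atg8-processing protease, at -0.21 ± 0.04 (adjusted p = 0.00297, 1.15-fold).

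The effect of TREM2R47H/TYROBP on Atg16 differed between backgrounds by the tests of the difference itself. It was larger with Aβ42 than without by 0.38 ± 0.06 log2 units (interaction, adjusted p = 0.00364, 0.672% of all genes called), and larger in GMR than in elav by 0.45 ± 0.08 (adjusted p = 0.00352, 0.469% of all genes called), where driver and sex cannot be told apart. Atg16 was the 1 gene of the 49 in each of these tests. The group with the low level was elav TREM2R47H/TYROBP in both. With no RIN term in the fit the differences were 0.29 and 0.18 and were not called (adjusted p = 0.39 and 0.439). That fit kept the RIN adjustment of the deposited values, so it was not a fit without RIN adjustment. The fitted slope of Atg16 was 0.21 log2 units per RIN unit. RIN was 6.9, 5.7 and 5.6 in GMR TREM2R47H/TYROBP and 6.8 to 6.9 in GMR control. The interaction of tau with TREM2R47H/TYROBP called none of the 49 (0.175% of all genes, with 7 at an unadjusted p under 0.05), and Atg16 there gave -0.21 ± 0.08 (adjusted p = 0.325).

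**Figure D3:**
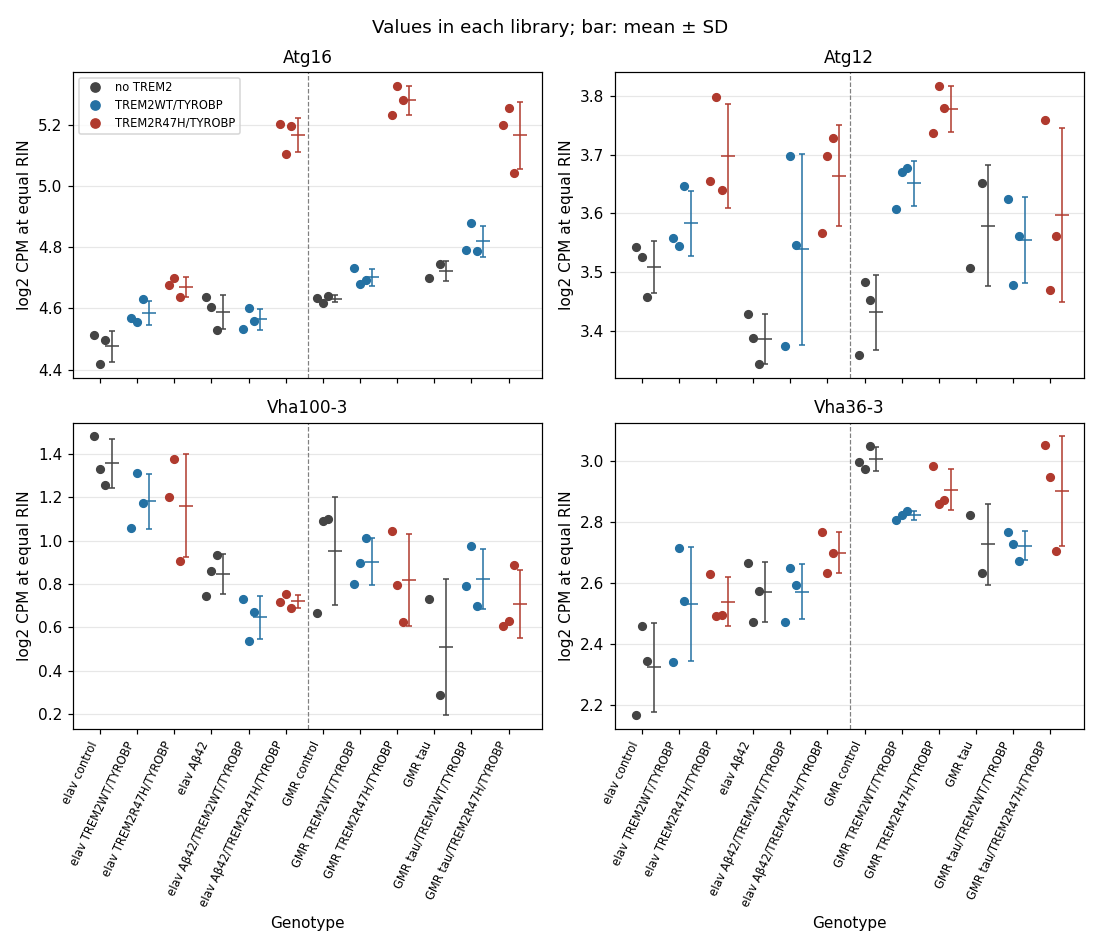
Log2 CPM at equal RIN of Atg16, Atg12, Vha100-3 and Vha36-3 in each library, by genotype, with the mean ± SD beside the points (n = 3, or 2 for GMR tau); the dashed line separates the elav from the GMR genotypes. Atg16 sits at 5.04 to 5.33 in 3 genotypes with TREM2R47H and at 4.42 to 4.88 in genotypes without it.

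Some of the genes next to Atg16 were also higher with TREM2R47H. Atg16 lies on chromosome 3R at 29827281-29835101 on the minus strand (BDGP6), so its 5′ end is at the higher coordinate. Beyond that end lie 2 genes at low levels, CG42592 (29835610-29836288, minus strand), 509 bases away, and CG15510 (29835950-29837447, plus strand), 849 bases away. CG15510 stood at 1.99 to 2.41 log2 CPM in the 3 genotypes with high Atg16, at 0.16 to 0.62 in elav TREM2R47H/TYROBP, and at -7.12 to -3.01 in the 23 libraries without TREM2R47H. CG42592 followed the same order, at 0.19 to 1.81, at -1.57 to -0.66 and at -7.04 to -4.71. All libraries with TREM2R47H were thus above all others for both genes, elav TREM2R47H/TYROBP included, and that genotype was again lower than the other 3. The effect of TREM2R47H/TYROBP on CG15510 and CG42592 was not called different with Aβ42 (limma interaction, adjusted p = 0.82 and 0.43). Nor was it between GMR and elav (adjusted p = 0.725 and 0.258). The log2 differences were 1.14 ± 1.22 and 1.82 ± 0.81 with Aβ42, and 2.07 ± 1.43 and 2.97 ± 0.95 between GMR and elav. These tests include genotypes near 0 CPM, where the errors are wide, and cannot decide whether the effect differed. Both genes were called higher with TREM2R47H than with TREM2WT in all 4 backgrounds, with an adjusted p for CG15510 of 0.00165 in the elav background, 1.34e-05 with Aβ42, 4.31e-05 in the GMR background and 6.57e-06 with tau. The fitted fold changes of both genes rest on values near 0 CPM in the libraries without TREM2R47H and are no measure of size.

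Of the 44 genes with their midpoint within 100 kb of Atg16, Atg16 included, 2 were called between the TREM2 forms in the elav background, 4 with Aβ42, 3 in the GMR background and 3 with tau, all of them higher with TREM2R47H. They were CG42592 and CG15510 in every background, Atg16 in 3, and neo, 1481 bases from the other end of Atg16, with Aβ42. Cad99C, 6556 bases beyond the 5′ end of Atg16, lay at 5.90 to 5.99 log2 CPM in the 3 genotypes with high Atg16 and at 5.66 to 5.95 in those without TREM2R47H. For Atg16 and its neighbours, a difference on the chromosome of the TREM2R47H line and an effect of the variant cannot be told apart.

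**Figure D4:**
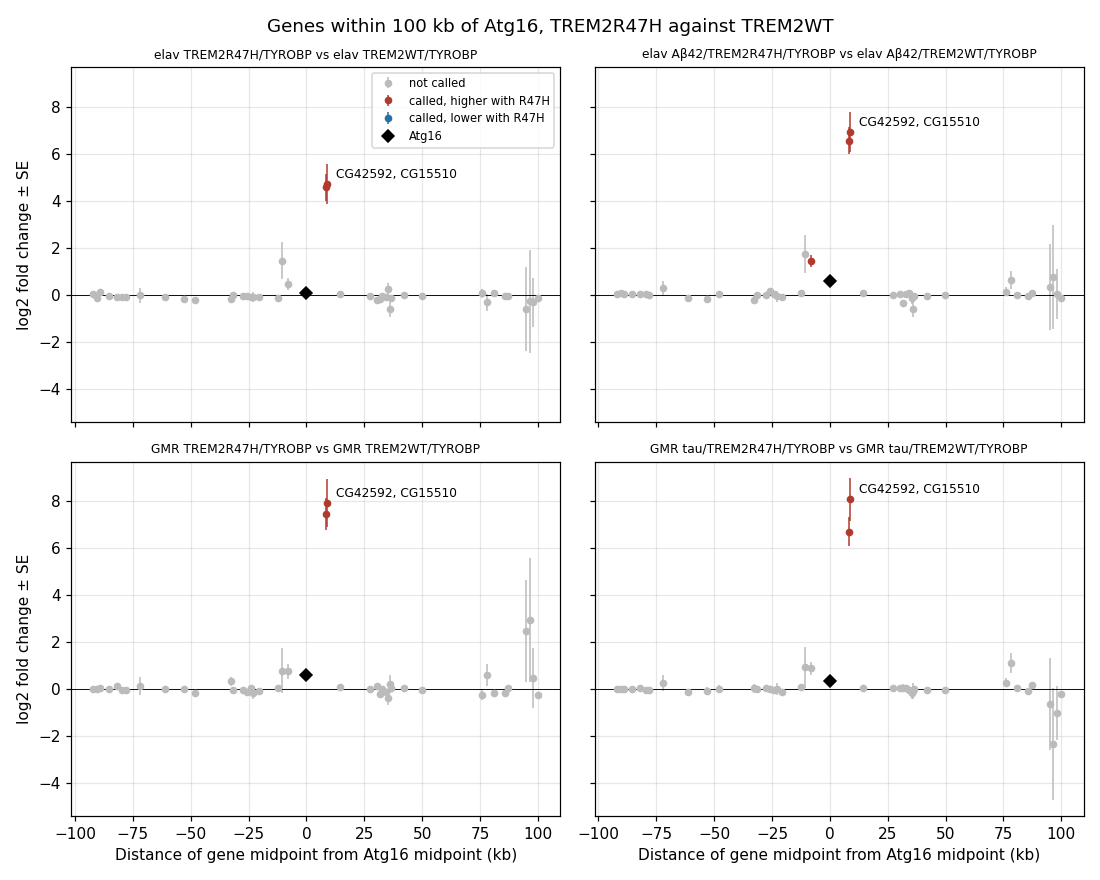
Log2 fold change ± SE of TREM2R47H/TYROBP against TREM2WT/TYROBP for the genes within 100 kb of Atg16, by distance between gene midpoints in kb, in each of 4 backgrounds. The black diamond is Atg16, red points are called higher and grey points are not called; CG42592 and CG15510 lie next to Atg16, and the size of their fold changes rests on values near 0 CPM.

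Atg12 encodes the ubiquitin-like protein that is joined to Atg5. Its log2 CPM was 3.36, 3.48 and 3.45 in GMR control and 3.74, 3.82 and 3.78 in GMR TREM2R47H/TYROBP. These libraries did not overlap, and Atg12 rose 1.27-fold (0.35 ± 0.08, adjusted p = 0.0111). In GMR TREM2WT/TYROBP, at 3.61, 3.67 and 3.68, it also lay above control, by 0.22 ± 0.07 (adjusted p = 0.0673), and the direct difference between the TREM2 forms was 0.13 ± 0.09 (adjusted p = 0.562). The call in GMR TREM2R47H/TYROBP was lost when only GMR libraries were fitted (0.34, adjusted p = 0.0556). Atg12 also rose 1.21-fold when TREM2R47H/TYROBP was added to Aβ42 (0.28 ± 0.07, adjusted p = 0.0131), from 3.43, 3.39 and 3.34 in elav Aβ42 to 3.57, 3.70 and 3.73. That call was lost without elav Aβ42 replicate 3 or without replicate 2 or 3 of elav Aβ42/TREM2R47H/TYROBP, with log2 fold changes of 0.26, 0.26 and 0.25 (adjusted p = 0.0539, 0.0562 and 0.0663). Atg12 overlaps l(3)neo18 on the other strand, a gene at 7.10 log2 CPM, whose differences in the same comparisons were 0.02 ± 0.04 and 0.21 ± 0.04 (adjusted p = 0.841 and 0.000495). Reads of the pair cannot be told apart in their overlap. The mean of Atg12 was lower in elav Aβ42 (3.39 log2 CPM) than in elav control (3.51). It was 3.54 in elav Aβ42/TREM2WT/TYROBP, 3.66 in elav Aβ42/TREM2R47H/TYROBP and 3.70 in elav TREM2R47H/TYROBP without Aβ42. Relative to elav control, Atg12 was not called in any of these genotypes.

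The remaining conjugation genes were not called. Atg3, a conjugating enzyme for Atg8, was higher in GMR TREM2WT/TYROBP by 0.14 ± 0.04 (adjusted p = 0.0365). Atg4a was lower in elav TREM2R47H/TYROBP (-0.17 ± 0.04, adjusted p = 0.0136) and higher in elav Aβ42/TREM2R47H/TYROBP (0.13 ± 0.04, adjusted p = 0.0228) and GMR tau (0.17 ± 0.05, adjusted p = 0.0195). Its paralog Atg4b was higher in GMR tau/TREM2WT/TYROBP (0.13 ± 0.04, adjusted p = 0.0429). Atg5, Atg7 (the activating enzyme of both systems) and Atg10 passed the adjusted p against control in no genotype, although for Atg10, at low level, none of the 10 intervals was within 1.2-fold.

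In the V1 sector, which hydrolyses ATP, 1 gene of 13 was called against control, where 25.6% of all genes were called in at least 1 comparison. Vha36-3, a copy of the gene for rotor subunit D, was 2.17, 2.46 and 2.34 log2 CPM in elav control and 2.77, 2.63 and 2.70 in elav Aβ42/TREM2R47H/TYROBP. The libraries did not overlap and the rise was 1.30-fold (0.38 ± 0.09, adjusted p = 0.00439). The call was lost with elav libraries alone (0.36, adjusted p = 0.0666) and with only the genotypes compared (0.44, adjusted p = 0.142). In the other 4 elav genotypes the difference lay between 0.21 and 0.25 (adjusted p between 0.0814 and 0.218), so that all 5 elav genotypes were above elav control. In the GMR genotypes it was between -0.28 and -0.10 and was not called. The paralog Vha36-1 passed the adjusted p in no comparison against control. Vha36-3 had the smallest p of the 49 in the test of the TREM2WT/TYROBP effect in GMR minus that in elav (-0.39 ± 0.13, adjusted p = 0.147), where none was called (1.82% of all genes) and 5 had an unadjusted p under 0.05.

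Smaller differences were found in 3 other V1 genes. VhaSFD, the regulatory subunit H, was 7.77, 7.74 and 7.73 log2 CPM in GMR control and 7.61, 7.62 and 7.61 in GMR TREM2WT/TYROBP. The difference was -0.14 ± 0.02, or 1.10-fold (adjusted p = 0.0008), with no overlap. In GMR tau/TREM2WT/TYROBP it was 7.69, 7.72 and 7.69, beside 7.70 and 7.65 in GMR tau, and VhaSFD had the smallest p of the 49 in both interactions with tau. These were 0.16 ± 0.04 for TREM2WT/TYROBP (adjusted p = 0.0577, none of 49 called, 0.357% of all genes, 13 of the 49 at an unadjusted p under 0.05) and 0.11 ± 0.04 for TREM2R47H/TYROBP (adjusted p = 0.316). The first passed an adjusted p of 0.05 with quantile normalization, with median centring and without genes of low level. Vha44, which holds the sectors together, was lower in elav TREM2WT/TYROBP by a log2 difference of -0.12 ± 0.03 (adjusted p = 0.0331). It also had the smallest p in the interaction of Aβ42 with TREM2WT/TYROBP (0.13 ± 0.04, adjusted p = 0.44), where none was called (0.238% of all genes) and 5 had an unadjusted p under 0.05. Vha14-1, a central stalk subunit, was higher in GMR TREM2R47H/TYROBP (0.19 ± 0.06, adjusted p = 0.0443). The catalytic Vha68-1 and Vha68-2, Vha55, Vha26 and Vha13 passed the adjusted p in no comparison against control.

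In the V0 sector, which conducts protons through the membrane, Vha100-3 fell in all 3 Aβ42 genotypes. It is a low-level copy of the gene for the large subunit a. Its log2 CPM was 1.48, 1.33 and 1.26 in elav control, 0.75, 0.86 and 0.93 in elav Aβ42, 0.73, 0.54 and 0.67 in elav Aβ42/TREM2WT/TYROBP and 0.72, 0.75 and 0.69 in elav Aβ42/TREM2R47H/TYROBP. No library with Aβ42 reached the lowest elav control library. The falls were 1.42-fold (-0.51 ± 0.14, adjusted p = 0.015), 1.64-fold (-0.71 ± 0.15, adjusted p = 0.00122) and 1.55-fold (-0.63 ± 0.14, adjusted p = 0.00183). With either form of TREM2/TYROBP but no Aβ42 the difference was -0.17 ± 0.14 or -0.19 ± 0.15 and was not called, and adding TREM2/TYROBP to Aβ42 gave -0.20 ± 0.14 and -0.12 ± 0.14. In GMR tau the value was -0.44 ± 0.16 (adjusted p = 0.0839). Vha100-3 overlaps sano on the other strand, a gene at 5.55 log2 CPM. sano differed from elav control by -0.17 ± 0.06, -0.26 ± 0.06 and -0.43 ± 0.06 in the same 3 genotypes (adjusted p = 0.0563, 0.00447 and 1.14e-05), and the reads of the pair cannot be told apart in their overlap. In elav Aβ42 the call was lost without elav control replicate 1 (-0.44, adjusted p = 0.0895) and without elav Aβ42 replicate 1 (-0.46, adjusted p = 0.0605). Hemocyte markers, 4 of 4 in the table with none at 0, summed to 681 to 710 CPM in elav control, 547 to 617 in elav Aβ42, 575 to 607 in elav Aβ42/TREM2WT/TYROBP and 579 to 645 in elav Aβ42/TREM2R47H/TYROBP, and 2, 2 and 1 of 4 were called lower. Of the 4 female and yolk markers, 3, 3 and 4 were called lower in the same 3 genotypes, and 1, 1 and 0 higher. In elav TREM2WT/TYROBP and elav TREM2R47H/TYROBP, where Vha100-3 was not called, 3 of the 4 were also called lower. In elav Aβ42/TREM2R47H/TYROBP 3 of 6 muscle markers (2358 to 2772 CPM, beside 2910 to 3405 in elav control) and 2 of 6 neuron markers (2002 to 2097 CPM, beside 2365 to 2478) were also called lower, and 1 of 6 of each in elav Aβ42/TREM2WT/TYROBP. The part of these lists in the falls was not tested. The abundant copies behaved otherwise: Vha100-1 passed the adjusted p in no comparison against control, and Vha100-2 was lower only in elav Aβ42/TREM2WT/TYROBP (-0.18 ± 0.06, adjusted p = 0.0417).

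VhaAC39-2, a copy of the gene for subunit d listed at about -3 log2 CPM, was lower in GMR tau. It was -4.72 and -4.16 in GMR tau and -2.29, -2.63 and -3.47 in GMR control, a log2 difference of -1.64 ± 0.43 (adjusted p = 0.0172). The 2 GMR tau libraries were the lowest of the 17 GMR libraries. Against GMR tau, GMR tau/TREM2WT/TYROBP was higher by 1.50 ± 0.43 (adjusted p = 0.0447), the 1 gene called of the 49 (3.19% of all genes were called). At this level few reads lie behind a value, and with 1 added to the linear value the differences shrank to -0.14 and 0.11 and lost their calls. The first was also lost without GMR control replicate 1 or 2 (-1.39 and -1.55, adjusted p = 0.0796 and 0.0553) or GMR tau replicate 1 or 2 (-1.35 and -2.02, adjusted p = 0.133 and 0.0687). The second was lost without GMR tau replicate 1 or 2 (1.13 and 1.80, adjusted p = 0.343 and 0.105) or GMR tau/TREM2WT/TYROBP replicate 1 or 3 (1.32 and 1.47, adjusted p = 0.187 and 0.114). The expressed copy, VhaAC39-1, was higher than GMR control by 0.12 ± 0.03 in GMR tau/TREM2R47H/TYROBP (adjusted p = 0.00377), higher than GMR tau by 0.13 ± 0.03 there (adjusted p = 0.0196) and higher than elav control by 0.08 ± 0.03 in elav Aβ42/TREM2R47H/TYROBP (adjusted p = 0.0449).

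The other V0 genes and the accessory subunits were not called. VhaM9.7-b, a small subunit gene, was higher on adding TREM2WT/TYROBP to Aβ42 (0.18 ± 0.04, adjusted p = 0.0123) and on adding TREM2R47H/TYROBP to Aβ42 (0.19 ± 0.04, adjusted p = 0.0039). In GMR tau/TREM2R47H/TYROBP, VhaM9.7-b, the proteolipid gene VhaPPA1-1 and the accessory VhaM8.9 were higher than control by 0.14 ± 0.04, 0.11 ± 0.04 and 0.12 ± 0.03 (adjusted p = 0.0276, 0.0308 and 0.023). That genotype and elav Aβ42/TREM2R47H/TYROBP held the most shifts of the 49 at an adjusted p under 0.05 with no fold threshold, with 8 genes higher and 2 lower (15.9% of all genes passed in either direction), and 9 higher and 1 lower (18.9%). Vha16-1, the most abundant of all, passed the adjusted p in no comparison against control, and each of its 10 intervals lay within 1.2-fold.

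Between the drivers' controls, 2 of the 49 genes rose and 1 fell in GMR relative to elav, where 24.7% of all genes were called, and 18 passed the adjusted p with no fold threshold, 13 higher and 5 lower (38.6% of all genes passed). Vha36-3 was between 2.97 and 3.05 log2 CPM in the GMR control libraries, all above the 2.17 to 2.46 of elav control, a 1.60-fold difference (0.68 ± 0.09, adjusted p = 1.99e-06). Atg17 was 7.65, 7.62 and 7.54 in GMR control and 7.22, 7.35 and 7.33 in elav control (0.30 ± 0.04, adjusted p = 2.23e-06). Vha100-3 was 0.66, 1.09 and 1.10 in GMR control, a log2 difference of -0.40 ± 0.14 (adjusted p = 0.0248). No library of these pairs overlapped, and driver and sex cannot be told apart here. Without elav control replicate 1 the Atg17 difference was 0.26, just under the fold threshold, and that of Vha100-3 was -0.33 (adjusted p = 0.117), and without GMR control replicate 1 that of Vha100-3 was -0.26 (adjusted p = 0.165). The call of Vha100-3 was also lost with a replicate block (-0.39, adjusted p = 0.0974) and with quantile normalization (-0.32, adjusted p = 0.114), and Atg17 fell under the fold threshold with each library centred on its median (0.24).

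A list of 30 autophagy and lysosome genes with other names ran from the lipid kinase Pi3K59F and the nutrient sensor Tor to lysosomal hydrolases. Of these, 3 were called in at least 1 of the 10 comparisons against control, where 25.6% of all genes were. The selective autophagy receptor ref(2)P, the lysosomal membrane gene Lamp1, Rab7 and the kinases Tor and S6k were not among them. cathD, the lysosomal aspartyl protease, was called in all 3 tau genotypes. It was 9.57, 9.54 and 9.64 log2 CPM in GMR control and 10.30 and 10.30 in GMR tau, a 1.64-fold rise (0.72 ± 0.05, adjusted p = 9.74e-11). With TREM2WT/TYROBP and TREM2R47H/TYROBP the tau genotypes were 0.68 ± 0.04 and 0.80 ± 0.04 above GMR control (adjusted p = 1.44e-10 and 4.5e-13). All 8 libraries with tau lay above all other libraries for cathD. In elav Aβ42/TREM2R47H/TYROBP it was 0.22 ± 0.04 above elav control (adjusted p = 0.000247), under the fold threshold. Markers of hemocytes, the fly macrophages, summed to 782 to 880 CPM in GMR tau, 665 to 743 in GMR tau/TREM2WT/TYROBP, 709 to 749 in GMR tau/TREM2R47H/TYROBP and 737 to 785 in GMR control. Of the 4 hemocyte markers, 1 was called higher in GMR tau, 1 lower in GMR tau/TREM2WT/TYROBP and none in GMR tau/TREM2R47H/TYROBP. The sums of photoreceptor and muscle markers were lower in the tau genotypes, with the calls given for Atg18a. The part of these lists in the rise was not tested.

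CG31414 (Gba1b), a glucocerebrosidase gene, fell in 4 genotypes. It was 4.99, 4.97 and 5.01 log2 CPM in GMR control and 4.67, 4.60 and 4.51 in GMR TREM2R47H/TYROBP, with no overlap (-0.40 ± 0.07, adjusted p = 0.000317). It also fell in GMR tau/TREM2WT/TYROBP (-0.40 ± 0.06, adjusted p = 0.000135), GMR tau/TREM2R47H/TYROBP (-0.52 ± 0.06, adjusted p = 3.7e-07) and elav Aβ42/TREM2R47H/TYROBP (-0.40 ± 0.06, adjusted p = 1.48e-05). In GMR tau alone, at 4.98 and 5.08, it was not called (0.04 ± 0.07). Hemocyte markers summed to 607 to 632 CPM in GMR TREM2R47H/TYROBP, beside 737 to 785 CPM in GMR control, and their part was not tested. Mitf, the fly counterpart of the factor that drives lysosomal genes, rose in elav TREM2R47H/TYROBP alone among the 10 comparisons (0.34 ± 0.07, adjusted p = 0.00527); it is named after its values were seen.

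**Figure D5:**
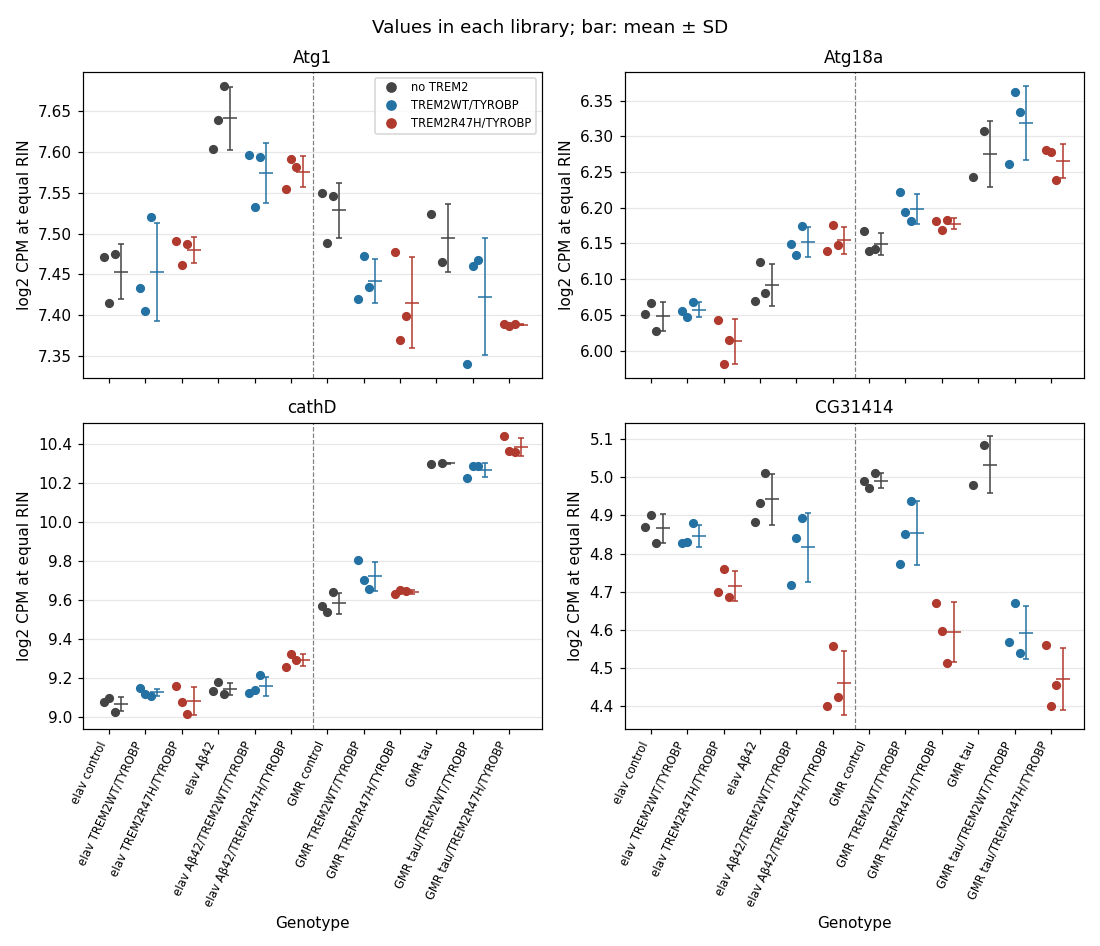
Log2 CPM at equal RIN of Atg1, Atg18a, cathD and CG31414 (Gba1b) in each library, by genotype, with the mean ± SD beside the points (n = 3, or 2 for GMR tau); the dashed line separates the elav from the GMR genotypes. Atg1 is higher in elav Aβ42 (7.60 to 7.68) than in elav control (7.41 to 7.47), Atg18a and cathD are higher in the tau genotypes than in GMR control, and CG31414 is lower in GMR TREM2R47H/TYROBP (4.51 to 4.67) than in GMR control (4.97 to 5.01).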

How the data were processed

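Per the study's methods, the authors sequenced ribosome-depleted RNA from adult heads (TruSeq v2, single-end, HiSeq), aligned the reads to BDGP6 with STAR 2.5.0b and counted them per gene with featureCounts. The authors dropped genes that never reached 5 reads in any library, scaled the counts by TMM and, by the name of the deposited table, adjusted them for RIN. The deposited values are log2 CPM after these steps, so counts and depth are not known. Sequences and promoter motifs were not used here.

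Here the values were fitted in limma 3.58.1 (R 4.3.3) with 12 genotypes and RIN as terms (22 residual degrees of freedom), with Benjamini-Hochberg adjustment over 14279 genes, for 25 contrasts. Over all libraries the deposited values had no slope on RIN (at most 3.02e-14), and the absolute slope inside a genotype had a median of 0.10 log2 units per RIN unit. Printed levels were moved to the mean RIN, 6.71, with the fitted slope. Levels per kb subtracted log2 of the gene length in the table. No libraries were identical. The code was tested on simulated data. The figures were drawn with matplotlib 3.10.9.

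Genes named with values were those called in at least 1 contrast, the smallest p of a contrast with no call, the highest and lowest of each role per kb, and those with a mean log2 under 0. Genes of the list with other names were named where called in at least 2 comparisons against control. Other genes with an adjusted p under 0.05, the neighbours of Atg16 and Mitf were named after their values were seen. The genes and lists were chosen with earlier results of these data known. Of 49 gene IDs, 45 were in the gene name table for this species. The alternatives were no RIN term, libraries of 1 driver, only the genotypes compared, genes with a mean of at least 0, 1 added before log2, quantile normalization, median centring, a replicate block, trended and robust eBayes, other fold thresholds and each library left out, and, added after seeing the data, a fit without the library of highest sum.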

Additional observations from a re-analysis of the deposited data

Results flagged for a closer look

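Results are listed here where the effect of a transgene on an Atg or Vha gene differed between backgrounds by a test of that difference. Of 6 such tests, 2 gave a gene, and it was Atg16 in both. The effect of TREM2R47H/TYROBP on Atg16 was larger with Aβ42 than without, by 0.38 ± 0.06 log2 units (SE, limma interaction, adjusted p = 0.00364). The effect of TREM2R47H/TYROBP on Atg16 was larger in the GMR than in the elav background by 0.45 ± 0.08 log2 units (adjusted p = 0.00352), where driver and sex cannot be told apart. In both, the background with the smaller effect was elav TREM2R47H/TYROBP, whose libraries stood at 4.64 to 4.70 log2 CPM. With no RIN term the differences were 0.29 and 0.18 (adjusted p = 0.39 and 0.439) and were not called. That fit kept the RIN adjustment of the deposited values.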

How the results depend on the processing

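Depth is unknown, so the counts behind low genes such as VhaAC39-2 and Vha100-3 are not known. The 25 comparisons held 21 calls of Atg and Vha genes. None of these called values changed sign under any alternative, nor did the value with the smallest p in a comparison with no call. The other values named from a comparison were not followed under the alternatives. Scaling moved the median of all genes by at most 0.06 log2 units. A fit without the library of highest sum, added after the data were seen, also gave 21 calls.

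With no RIN term, which leaves the RIN adjustment of the deposited values in place, 23 calls were made. The count became 1 in elav TREM2R47H/TYROBP against control (Atg16), 2 in elav Aβ42/TREM2WT/TYROBP (Vha100-3 and Vha36-3) and 1 in GMR tau/TREM2WT/TYROBP (Vha36-3, lower), and 0 for both differences between effects that gave Atg16. With libraries of 1 driver, GMR TREM2R47H/TYROBP against control had 1 call (Atg16) and tau/TREM2WT/TYROBP against tau 0. With only the genotypes compared, which leaves few libraries to estimate the spread, 3 calls were made where there had been 21. The count was then 1 for elav Aβ42/TREM2R47H/TYROBP against control (Atg16) and 0 for 13 other comparisons that had had calls, Atg16 in the comparisons of TREM2 forms included. GMR tau against control had 0 calls among genes with a mean of at least 0 and with 1 added before log2, and tau/TREM2WT/TYROBP against tau had 0 in both, with quantile normalization, with the replicate block and with trended and robust eBayes. The interaction of tau with TREM2WT/TYROBP had 1 call (VhaSFD) among genes with a mean of at least 0, with quantile normalization and with median centring. Aβ42/TREM2R47H/TYROBP against Aβ42 had 1 call (Atg16) with 1 added, with quantile normalization and with median centring. Quantile normalization gave 2 calls in elav Aβ42 against control and 1 (VhaSFD, lower) for the TREM2WT/TYROBP effect in GMR minus elav.

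A log2 fold change above 1 left 0 calls in 11 comparisons and 2 calls in all, both VhaAC39-2. With no fold threshold 82 calls were made where there had been 19. Against control these were 1, 3, 5, 7 and 10 in the elav genotypes and 3, 4, 3, 4 and 10 in the GMR genotypes, in the order given in the report. The others were 1 and 6 on adding TREM2WT/TYROBP or TREM2R47H/TYROBP to Aβ42, 2 on adding TREM2R47H/TYROBP to tau, 1 between TREM2 forms in the elav background and 18 between the controls.

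The replicate numbers did not pair the libraries. The mean correlation of same-numbered residuals was 0.00112 in the elav and -0.0207 in the GMR libraries, and 5 of 18 and 4 of 17 libraries were closest to their own number. The replicate block gave 19 calls in place of 21, without VhaAC39-2 on adding TREM2WT/TYROBP to tau and Vha100-3 between the controls.

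With each library left out in turn, the count ran from 0 to 1 in GMR tau, from 0 to 1 in elav TREM2R47H/TYROBP, from 0 to 2 in elav Aβ42 and from 1 to 2 in elav Aβ42/TREM2WT/TYROBP against control. It ran from 0 to 1 for Aβ42/TREM2WT/TYROBP and from 1 to 3 for Aβ42/TREM2R47H/TYROBP against Aβ42, from 0 to 1 for tau/TREM2WT/TYROBP and from 1 to 2 for tau/TREM2R47H/TYROBP against tau, from 1 to 2 for the interaction of Aβ42 with TREM2R47H/TYROBP and from 1 to 4 between the controls.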
